A study of Homo sapiens with 15 samples.

Results

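The cadherin, epithelial adhesion and mesenchymal cytoskeleton genes described here are 10 genes chosen by name: CDH1, CDH2, CDH3, CDH4, CDH11, CDH13, EPCAM, VIM, TAGLN and ACTA2. They are 10 of the 60721 genes in the count table, and all 10 were among the 17457 genes tested. RNA was measured by sequencing of poly(A) RNA from MCF-10A cells (labelled MCF10), a non-tumorigenic human breast epithelial line, in 15 libraries. The labels give 5 genotypes, in 3 biological replicates per genotype: unedited parental cells, unedited cells carrying an empty vector, and lines labelled NF1-g1, NF1-g2 and NF1-g1/g2 for the guides used against NF1, called here guide 1, guide 2 and both guides. All 15 cultures were untreated and shared a DMEM/F12 medium with horse serum, EGF, hydrocortisone, cholera toxin and insulin. The labels do not say whether an edited line was a clone or a pool, nor how the replicates were separated, so p-values measure the spread between these libraries only. The question addressed was whether the cells with edited NF1, the gene for the RAS inhibitor neurofibromin, showed a switch from epithelial to mesenchymal cadherin.

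Classical cadherins are calcium-dependent proteins that join neighbouring cells by binding their own kind, and their cytoplasmic tails bind catenins, which connect them to actin. CDH1 (E-cadherin) is the main cadherin of simple and stratified epithelium, CDH3 (P-cadherin) marks the basal layer of the breast, and CDH2 (N-cadherin) is typical of mesenchymal and neural cells. A fall of CDH1 with a rise of CDH2 is called a cadherin switch, a common sign of epithelial-mesenchymal transition (EMT). In that transition epithelial cells also tend to lose EPCAM and to gain vimentin (VIM) and smooth-muscle cytoskeleton proteins such as transgelin (TAGLN) and smooth-muscle actin (ACTA2).

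Library totals lay between 46129559 and 78976917 counts, so that 3 counts, taken as the detection floor, were worth 0.038 to 0.065 CPM, the unit of counts scaled to the library total used for all levels here. Such floors, and the exact intervals of the cadherin ratios given below, cover counting error only. The intervals of fold changes also carry the spread between libraries. NF1 itself lay between 26.0 and 51.3 CPM in the 9 edited libraries and between 115.3 and 158.7 CPM in the 6 unedited ones, without overlap. The summed level of 9 epithelial markers was 3710 to 12200 CPM, and KRT5 and KRT7 were abundant in every library, while KRT19 was at most 0.235 CPM. Other epithelial markers varied widely. With empty vector TP63 was at 41.4 to 68.0 CPM and KRT14 at 118.1 to 308.7 CPM. With guide 1 they were at 0.142 to 0.203 and 6.44 to 9.90 CPM. Guide 2 replicates 1 and 3 had 0.0542 and 0.0723 CPM of TP63 and 18.9 and 17.4 CPM of KRT14. Unedited parental replicate 2 was low too, at 0.815 and 37.8 CPM. Of the marker lists of other cell types, PTPRC, CD3E and LYZ (immune), CLDN5 and CDH5 (endothelium), CNN1 (smooth muscle) and COL3A1 (fibroblast) had at most 3 counts in every library. Other genes of those lists were detected, among them CD14 (immune) at 3.24 to 6.95 CPM, KDR and PECAM1 (endothelium) at 1.72 to 10.99 CPM and 0.586 to 1.99 CPM, and OXTR (myoepithelium) at 1.34 to 2.42 CPM.

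Some libraries stood apart from the other replicates of their genotype in the genes described here. Guide 2 replicate 2 had high CDH1, CDH3, CDH4 and EPCAM and the lowest CDH2, CDH13 and VIM of all 15 libraries, although its NF1 level was in the range of the edited libraries. Parental replicate 2 had less CDH1, CDH3 and EPCAM than the other parental libraries. Empty-vector replicate 3 had more CDH1 (127.3 CPM, against 44.1 and 46.8), CDH3, CDH11, EPCAM and TAGLN than the other empty-vector libraries. It is a control in every comparison with empty vector. Results on the 10 genes are therefore given with all 15 libraries. For many, but not all, comparisons where the call or direction changes, they are also given without guide 2 replicate 2. That library was picked out by its levels of these same genes, so calls made without it are not independent support. A gene was called changed where edgeR's quasi-likelihood test over all 15 libraries gave a Benjamini-Hochberg adjusted p under 0.05 among all tested genes.

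The promoters of CDH2 and VIM are shown because these mesenchymal genes varied together across libraries. Of the 10 genes, 4 (CDH2, CDH4, VIM and ACTA2) have promoter entries in the RefSeq table (GRCh38.p14), with 250 bases before to 50 bases after a transcript start. CDH1, CDH3, CDH11, CDH13, EPCAM and TAGLN are named only. CDH2 has 2 entries, of which the one farther upstream in the gene is shown. That CDH2 window is chr18:28177081-28177380 on the minus strand and the VIM window is chr10:17227991-17228290 on the plus strand, each written 5′ to 3′ along its gene.
CDH2: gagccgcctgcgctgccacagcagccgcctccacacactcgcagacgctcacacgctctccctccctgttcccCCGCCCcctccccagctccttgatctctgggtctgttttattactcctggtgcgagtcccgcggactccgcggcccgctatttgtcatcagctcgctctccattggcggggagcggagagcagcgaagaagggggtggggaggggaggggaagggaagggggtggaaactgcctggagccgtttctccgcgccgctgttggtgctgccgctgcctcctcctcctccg
VIM: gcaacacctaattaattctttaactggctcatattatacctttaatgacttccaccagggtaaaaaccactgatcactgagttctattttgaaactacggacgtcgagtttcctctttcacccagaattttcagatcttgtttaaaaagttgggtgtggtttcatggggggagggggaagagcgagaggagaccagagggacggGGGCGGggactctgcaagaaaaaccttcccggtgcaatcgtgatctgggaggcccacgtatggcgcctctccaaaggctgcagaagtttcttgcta
Capitals mark a GC box, GGGCGG on either strand, the binding motif of SP1-type factors. Each window shown held 1 GC box, a motif found in 45.0% of the 35116 promoter entries. Neither held an E-box (CANNTG, searched on both strands), the core motif read by SNAI, ZEB and TWIST proteins, which 68.7% of entries hold. The other CDH2 entry (chr18:28036592-28036891, minus strand) held 1 E-box and 0 GC boxes, so the 2 entries differed in both motifs. The CDH2 window shown had 23 CG pairs and the VIM window 10, against a median of 14 over all entries. These matches describe the letters in the windows and are not evidence of binding.

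Among the epithelial genes, CDH1 varied most. CDH1 (ENSG00000039068, chr16:68737225-68835548, plus strand) was at 44.1, 46.8 and 127.3 CPM in empty-vector replicates 1, 2 and 3. Parental cells had 42.9, 1.79 and 37.8 CPM. The guide 1 line had 0.0192, 0.152 and 0.158 CPM, which are 1, 12 and 10 counts. The guide 2 line had 0.0361, 91.4 and 0.0434 CPM, or 2, 5042 and 3 counts. The line with both guides had 23.4, 17.3 and 14.8 CPM. E-cadherin transcript was thus reduced to 1 to 12 counts in 5 of the 9 edited libraries, and present at more than 10 CPM in the other 4. Guide 1 and empty-vector libraries did not overlap, and neither did those of both guides and empty vector, whereas guide 2 spanned both extremes. In these bulk libraries fewer cells with CDH1 and less CDH1 RNA per cell cannot be told apart.

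CDH1 was lower in the guide 1 line than in empty-vector cells by a log2 fold change of -9.27 (SE 2.45, adjusted p = 0.0446). Adding a replicate block gave an adjusted p of 0.0874, and the call was kept in 4 of the 15 fits that left out 1 library (without parental replicate 2 or any guide 2 library). In the other 11 fits it was lost, with an adjusted p of up to 0.167. Without guide 2 replicate 2 the same comparison gave -9.27 with an SE of 1.18 and an adjusted p of 0.000257. Against empty vector, guide 2 gave -1.29 (adjusted p = 0.715) with all libraries and -10.78 (adjusted p = 0.00111) without its replicate 2. Both guides gave -2.01 (adjusted p = 0.664) and parental cells -1.44 (adjusted p = 0.672). Against parental cells, CDH1 in guide 1 gave -7.83 (adjusted p = 0.168), called only without guide 2 replicate 2 (adjusted p = 0.00214). The line with both guides and the guide 1 line did not overlap in CDH1, with a difference of 7.27 on the log2 scale (SE 2.36, adjusted p = 0.257; 0.00467 without guide 2 replicate 2).

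CDH3 followed CDH1 at higher residual levels. CDH3 (ENSG00000062038, chr16:68636189-68722616, plus strand) ends 14608 bases before the start of CDH1 on the same strand. It was at 129.5, 136.8 and 264.5 CPM in empty-vector cells and at 94.0, 35.8 and 106.0 CPM in parental cells. The guide 1 line had 22.7, 25.2 and 20.5 CPM, guide 2 had 16.6, 153.5 and 15.8 CPM, and both guides had 81.0, 70.9 and 66.1 CPM. The guide 1 libraries and guide 2 replicates 1 and 3 were below all others. Unlike CDH1, CDH3 stayed far above the floor in every library. In guide 1 against empty vector CDH3 was lower by -2.97 on the log2 scale (SE 0.75, adjusted p = 0.0369). With the replicate block the adjusted p was 0.0727. The call held in 5 of the 15 fits without 1 library (without parental replicate 1 or 2, or any guide 2 library) and reached an adjusted p of 0.148 in the other fits. Without guide 2 replicate 2 the adjusted p was 0.000188 for guide 1, and guide 2 was called too, at -3.48 (adjusted p = 0.000365), against -1.54 (adjusted p = 0.262) with all libraries. CDH3 was below every empty-vector library in the unedited parental cells too (-1.21, adjusted p = 0.376; 0.0276 without guide 2 replicate 2) and with both guides (-1.31, adjusted p = 0.453; 0.0333 without that library).

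EPCAM, an epithelial adhesion protein outside the cadherin family, lies at chr2:47345158-47387601 (plus strand). It was at 10.7, 9.42 and 18.2 CPM in empty-vector cells and at 29.1, 1.93 and 8.14 CPM in parental cells. It was at 2.39, 2.15 and 1.85 CPM with guide 1, at 2.62, 102.6 and 2.67 CPM with guide 2, and at 3.32, 3.21 and 2.84 CPM with both guides. All edited libraries but guide 2 replicate 2 were below every empty-vector library, while parental replicate 2 was as low as the guide 1 libraries. EPCAM was called in 0 of the 11 comparisons with all libraries by edgeR, with 2 at an unadjusted p under 0.05, and DESeq2 called 1, guide 1 against guide 2. Against empty vector the log2 fold changes were -2.60 for guide 1 (adjusted p = 0.239) and -2.06 for both guides (adjusted p = 0.487). Guide 2 gave 1.46 (adjusted p = 0.537) with all libraries and -2.30 (adjusted p = 0.0574) without its replicate 2. Without that library the guide 1 difference was called, at -2.61 (adjusted p = 0.0144).

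**Figure D1:**
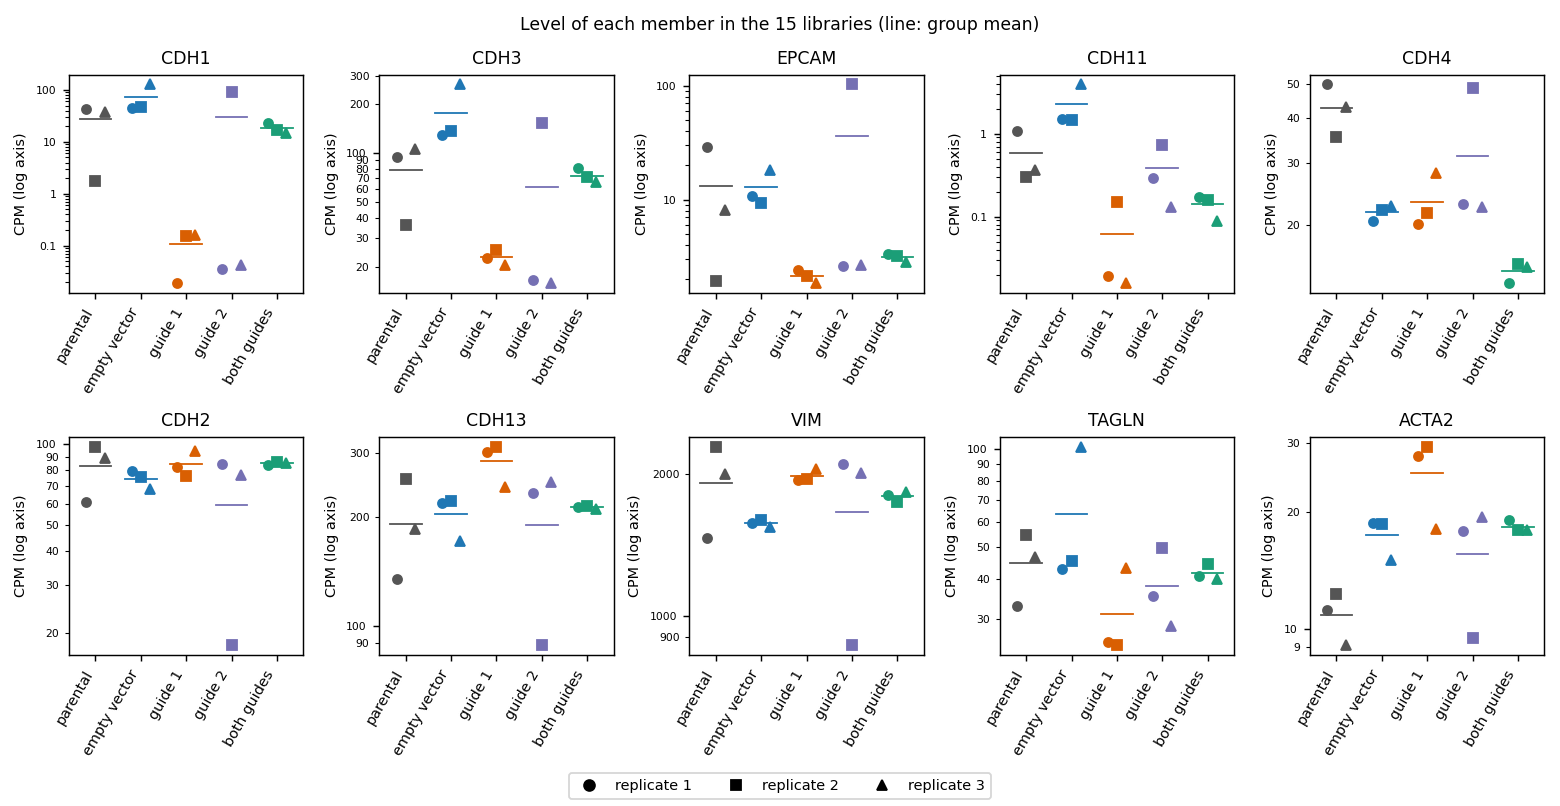
Level of each of the 10 genes in the 15 libraries, in CPM on a log axis whose range differs between panels, with 1 point per library and a line at the group mean. CDH1, CDH3 and EPCAM are low in guide 1 and in guide 2 replicates 1 and 3, while CDH2 lies between 61.3 and 98.0 CPM in every library except guide 2 replicate 2.

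The mesenchymal cadherin CDH2 was not called higher in any comparison, those in which CDH1 was low included. CDH2 (ENSG00000170558, chr18:27950966-28177446, minus strand) was at 79.9, 75.4 and 68.0 CPM in empty-vector cells and at 61.3, 98.0 and 88.9 CPM in parental cells. The guide 1 line had 82.5, 76.1 and 94.6 CPM, guide 2 had 84.2, 17.9 and 77.04 CPM, and both guides had 83.6, 86.3 and 84.9 CPM. The groups overlapped except that the libraries with both guides lay above those with empty vector. N-cadherin transcript was therefore abundant in unedited cells as well. Leaving out guide 2 replicate 2, CDH2 spanned a 1.6-fold range over 14 libraries in which CDH1 spanned a 6650-fold range. By edgeR CDH2 was called in 0 of 11 comparisons, 0 had an unadjusted p under 0.05, and DESeq2 also called 0.

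Against empty vector, CDH2 differed by 0.17 on the log2 scale in guide 1 (95% interval -0.69 to 1.03, adjusted p = 0.842), by -0.32 in guide 2 (-1.18 to 0.54, adjusted p = 0.71) and by 0.17 with both guides (-0.69 to 1.03, adjusted p = 0.916). Without guide 2 replicate 2 the intervals narrowed to -0.14 to 0.46 for guide 1, -0.25 to 0.42 for guide 2 and -0.14 to 0.46 for both guides. Edited against unedited lines gave -0.05 (-0.61 to 0.50) with all libraries and 0.08 (-0.12 to 0.28) without that library. These intervals are the fold change with its SE and the residual degrees of freedom, and they leave room for differences within their bounds.

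The balance of the 2 cadherins was set out as the ratio of CDH2 to CDH1 reads per kilobase of exon, which compares the genes per length. It was 1.78, 68.5 and 2.94 in the parental libraries and 2.26, 2.01 and 0.667 in the empty-vector libraries. It was 5377 (95% exact interval 964.6 to 212400), 625.3 (357.7 to 1211) and 745.6 (405.1 to 1556) with guide 1. With guide 2 it was 2907 (804.3 to 24010) in replicate 1, 0.245 (0.229 to 0.262) in replicate 2 and 2217 (758.2 to 10750) in replicate 3. With both guides it was 4.45, 6.22 and 7.16, above all empty-vector libraries but below parental replicate 2. CDH2 exceeded CDH1 per kilobase in 13 libraries, 5 of them unedited, and CDH1 exceeded CDH2 in empty-vector replicate 3 and guide 2 replicate 2. The high ratios were in libraries with 1 to 12 counts of CDH1 and CDH2 levels like those of the unedited cells. Across the 15 libraries log2 CDH1 and CDH2 had a Pearson r of -0.37 (-0.35 without guide 2 replicate 2, n = 14), given as a description of libraries that share their genotype in threes.

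**Figure D2:**
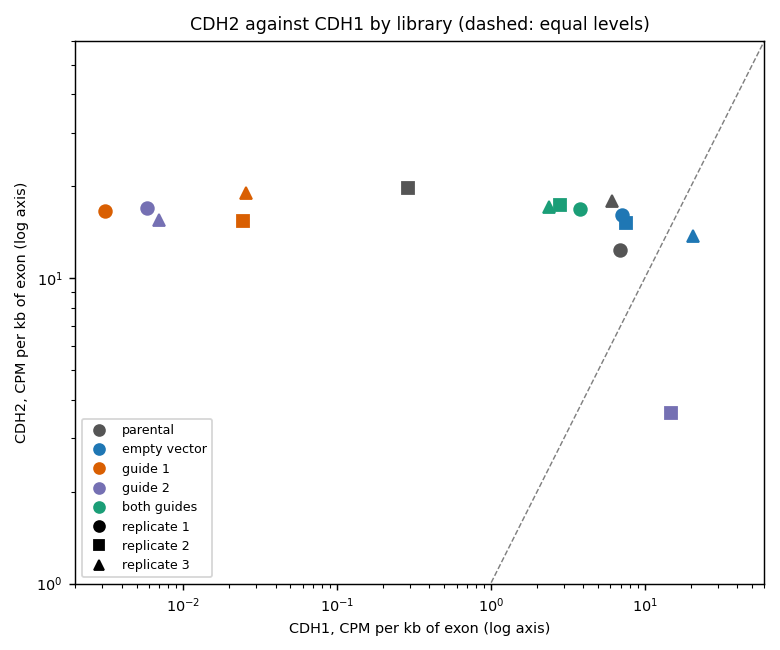
CDH2 against CDH1 in the 15 libraries, both in CPM per kilobase of exon on log axes, with colour for genotype, shape for replicate and a dashed line of equal levels. The points form a horizontal band, with CDH2 within a 1.6-fold range while CDH1 spans a 6650-fold range, except guide 2 replicate 2, which lies far below it, and 2 of the 15 points lie to the right of the line.

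Among the other cadherins of the set, CDH11 was lower in guide 1, with both guides and over the edited lines, at low abundance. CDH11 (OB-cadherin, a type II cadherin known from osteoblasts and other mesenchymal cells; chr16:64943753-65126112, minus strand) was at 1.49, 1.46 and 3.92 CPM in empty-vector cells and at 1.09, 0.298 and 0.368 CPM in parental cells. It was at 0.0192, 0.152 and 0.0158 CPM with guide 1, which are 1, 12 and 1 counts. It was at 0.289, 0.725 and 0.130 CPM with guide 2, and at 0.173, 0.160 and 0.0894 CPM with both guides, or 5 to 9 counts. Every edited library lay below every empty-vector library, and so did every parental library. In guide 2 replicate 2 CDH11 was below the empty-vector range while CDH1 was within it. The guide 1 difference was -5.03 (SE 0.86, adjusted p = 0.00712), and it was called with the replicate block (adjusted p = 0.0202) and in all 15 fits without 1 library. Both guides gave -4.04 (adjusted p = 0.0353), a call kept in 7 of those 15 fits (without parental replicate 1 or 2, guide 1 replicate 2 or 3, or any guide 2 library), with an adjusted p of up to 0.191 in the others. Guide 2 gave -2.62 (adjusted p = 0.0623), called at -3.50 without its replicate 2 (adjusted p = 0.00759). Over the 9 edited and 6 unedited libraries CDH11 was lower by -2.90 (SE 0.49, adjusted p = 0.0142), which was called in all 15 fits without 1 library, though the 2 sets overlapped. Parental against empty vector was -1.997 (adjusted p = 0.125; 0.0335 without guide 2 replicate 2). Against parental cells CDH11 differed by -3.03 in guide 1 (adjusted p = 0.162; 0.0256 without that library), by -0.63 in guide 2 (95% interval -2.24 to 0.99, adjusted p = 0.945) and by -2.04 with both guides (adjusted p = 0.405).

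CDH4 (R-cadherin, a close relative of CDH2 known from retina and brain; chr20:61252426-61940617, plus strand) was at 49.8, 35.4 and 43.0 CPM in parental cells and at 20.6, 22.2 and 22.7 CPM in empty-vector cells. It was at 20.2, 21.7 and 28.1 CPM with guide 1, at 23.0, 48.7 and 22.5 CPM with guide 2, and at 13.8, 15.6 and 15.2 CPM with both guides. The parental libraries were above all others except guide 2 replicate 2, and the libraries with both guides were the lowest. The difference of both guides from parental cells was -1.52 on the log2 scale (SE 0.25, adjusted p = 0.0265), called in 6 of the 15 fits without 1 library (those without a guide 1 or guide 2 library) and at up to 0.17 in the others. Parental and empty-vector cells, neither of them edited, differed by 0.94 (SE 0.25, adjusted p = 0.0505; 0.00093 without guide 2 replicate 2). Guide 1 against empty vector gave 0.08 (95% interval -0.46 to 0.63, adjusted p = 0.883), and -0.0585 without guide 1 replicate 3. Guide 1 against parental cells gave -0.85 (adjusted p = 0.165; 0.00224 without guide 2 replicate 2).

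CDH13 (T-cadherin, anchored to the membrane by a lipid and without a catenin-binding tail; chr16:82626803-83800640, plus strand) was at 218.9, 222.1 and 172.3 CPM in empty-vector cells and at 134.7, 254.8 and 185.7 CPM in parental cells. It was at 303.6, 313.2 and 242.3 CPM with guide 1, at 233.1, 88.5 and 249.5 CPM with guide 2, and at 213.8, 214.9 and 210.8 CPM with both guides. The guide 1 libraries lay above the empty-vector libraries, with a log2 difference of 0.48 (95% interval -0.21 to 1.17, adjusted p = 0.403). CDH13 was called in 0 of 11 comparisons by edgeR, with 0 at an unadjusted p under 0.05, and in 0 by DESeq2. Without guide 2 replicate 2 it was called higher in guide 1 than in parental cells, by 0.60 (95% interval 0.20 to 1.01). The libraries of these 2 genotypes overlapped. With all libraries that difference was 0.60 (-0.09 to 1.29). Per kilobase CDH13 was the highest cadherin by its mean over the 15 libraries, at 19.4 CPM per kb, followed by CDH2 at 15.6 and CDH3 at 13.3. CDH1 averaged 4.84, CDH4 3.65 and CDH11 0.0517 CPM per kb. The order changed between libraries, within genotypes as well: CDH13 was the highest in 9 libraries, CDH3 in 5 and CDH2 in 1. In parental replicates 1, 2 and 3 the highest were CDH3, CDH13 and CDH2, in that order. With empty vector CDH3 was at 20.8, 21.9 and 42.4 CPM per kb and CDH13 at 19.6, 19.9 and 15.4, and in guide 2 replicate 2 CDH3 was at 24.6 and CDH13 at 7.91. With guide 1 and with both guides CDH13 was the highest in every library. CDH11 lay below CDH4 in every library.

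The intermediate filament gene VIM (chr10:17228259-17237593, plus strand) was at 1577, 1599 and 1543 CPM in empty-vector cells and at 1466, 2289 and 1998 CPM in parental cells. It was at 1947, 1954 and 2051 CPM with guide 1, at 2107, 865.5 and 2007 CPM with guide 2, and at 1803, 1749 and 1834 CPM with both guides. Vimentin transcript was abundant in every library, unedited ones included, and per kilobase it was the highest of the 10 genes at a mean of 346.2 CPM per kb. The guide 1 and both-guides libraries lay above those with empty vector but within the parental range. VIM differed from empty vector by 0.32 in guide 1 (95% interval -0.24 to 0.89, adjusted p = 0.493), by 0.07 in guide 2 and by 0.17 with both guides. Without guide 2 replicate 2 these were 0.31 (0.05 to 0.57, adjusted p = 0.0774), 0.36 (0.07 to 0.64, adjusted p = 0.0803) and 0.16 (-0.10 to 0.41). VIM was called in 0 of 11 comparisons by edgeR, with 0 at an unadjusted p under 0.05, and in 0 by DESeq2.

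TAGLN (transgelin, an actin-binding protein of smooth muscle; chr11:117199321-117204782, plus strand) was at 42.9, 45.4 and 102.0 CPM in empty-vector cells and at 33.0, 54.6 and 46.8 CPM in parental cells. It was at 25.5, 25.0 and 43.3 CPM with guide 1, at 35.5, 49.7 and 28.6 CPM with guide 2, and at 40.7, 44.4 and 40.0 CPM with both guides. Empty-vector replicate 3 stood above all other libraries and the groups overlapped. Guide 1 against empty vector gave -1.04 (SE 0.34, adjusted p = 0.0892; 0.0298 without guide 2 replicate 2). TAGLN was called in 0 of 11 comparisons by edgeR, 3 of them with an unadjusted p under 0.05, and in 1 by DESeq2, guide 1 against empty vector.

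ACTA2 (chr10:88935074-88991339, minus strand) was at 18.8, 18.6 and 15.1 CPM in empty-vector cells and at 11.2, 12.3 and 9.09 CPM in parental cells. It was at 27.9, 29.4 and 18.1 CPM with guide 1, at 17.9, 9.497 and 19.4 CPM with guide 2, and at 19.0, 18.0 and 18.0 CPM with both guides. The parental libraries were below all others except guide 2 replicate 2. Guide 1 differed from parental cells by 1.23 (SE 0.25, adjusted p = 0.0724; 0.00139 without guide 2 replicate 2) and from empty-vector cells by 0.52 (adjusted p = 0.24). ACTA2 was called in 0 of 11 comparisons by edgeR, 6 of them with an unadjusted p under 0.05, and in 2 by DESeq2, guide 1 and empty vector each against parental cells. ACTA2 shares its position with FAS and STAMBPL1, TAGLN with PCSK7 and VIM with VIM-AS1, each on the opposite strand. The use of strand in counting is not given in the sources used here, so reads of these 3 genes may include reads of their partners.

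**Figure D3:**
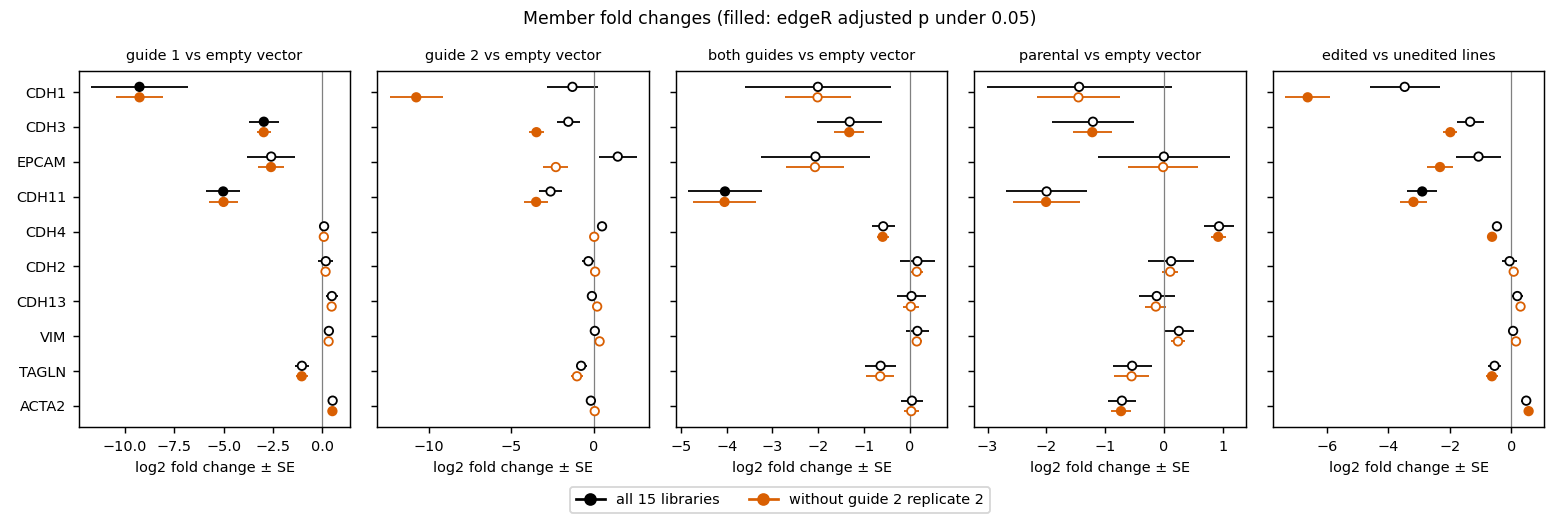
Log2 fold change and SE of each of the 10 genes in 5 comparisons, with all 15 libraries in black and without guide 2 replicate 2 in orange, filled where called, and with a separate horizontal scale in each panel. CDH1, CDH3, EPCAM and CDH11 lie left of 0 in guide 1 against empty vector, and CDH2, CDH13 and VIM lie between -0.32 and 0.48 in all 5 panels.

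Counted together, 3 of the 10 genes were lower and 0 higher in guide 1 against empty vector (CDH1, CDH3 and CDH11), where 4.57% of all tested genes were called lower. Libraries did not overlap for 6 of the 10 in that comparison, against 36.2% of all tested genes. The median log2 fold change of the 10 genes was -0.48, beside 0.02 over all tested genes. In guide 2 against empty vector 0 of 10 were called, with 3 at an unadjusted p under 0.05 and 1 called by DESeq2, beside 3.94% of all tested genes called by edgeR. With both guides against empty vector 1 of 10 (CDH11) was lower, beside 0.693% of tested genes, and libraries did not overlap for 7 of 10, beside 37.7%. Edited against unedited lines called 1 of 10 (CDH11) lower, beside 1.19%. Both guides against parental cells called 1 of 10 (CDH4) lower, beside 0.0859%. Parental against empty vector called 0 of 10, with 3 at an unadjusted p under 0.05 and 2 called by DESeq2, beside 4.37% of all tested genes. The comparisons with empty vector share the same 3 control libraries and are not independent.

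Over all 11 comparisons, 6 of 110 tests of these genes were called, for 4 of the 10 genes. The share of all tested genes called was 5.88% for guide 1, 3.94% for guide 2, 0.962% for both guides and 4.37% for parental cells, each against empty vector. It was 0.149%, 0.0516% and 0.195% for guide 1, guide 2 and both guides against parental cells, and 1.51% for edited against unedited lines. It was 0.0401% for guide 1 against guide 2, and 0.275% and 0.149% for both guides against guide 1 and against guide 2. Without guide 2 replicate 2 the number of calls was 42, and the share of all tested genes called lay between 0.162% (guide 1 against guide 2) and 18.1% (guide 1 against empty vector). In that comparison 6 of the 10 genes were then called, 5 lower and 1 higher, the latter ACTA2 at 0.50 (adjusted p = 0.0496). In edited against unedited lines the number without that library was 7 of 10, beside 18.0% of tested genes, with 6 lower and ACTA2 higher. CDH2, VIM and CDH13 were not among them. Leaving out that library moved CDH1 there from -3.47 to -6.63, CDH3 from -1.34 to -1.98 and EPCAM from -1.07 to -2.32. In guide 2 against parental cells it moved CDH1 from 0.15 to -9.33, CDH3 from -0.34 to -2.26 and EPCAM from 1.46 to -2.29. Without that library 3 of 10 were lower in guide 2 against empty vector (CDH1, CDH3 and CDH11), beside 14.5% of tested genes, and 3 of 10 with both guides (CDH3, CDH4 and CDH11), beside 6.7%. In parental against empty vector, which compares unedited cells, 3 were then lower (CDH3, CDH11 and ACTA2) and CDH4 was higher, beside 13.9%.

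The share of variance in log2 CPM that lay between genotypes was 82.2% for CDH11, 77.8% for CDH4, 67.5% for ACTA2, 65.2% for CDH1 and 61.7% for CDH3. It was 42.4% for TAGLN, 34.1% for EPCAM, 31.9% for CDH13, 27.4% for CDH2 and 18.2% for VIM, beside a median of 39.8% over tested genes. For TAGLN, EPCAM, CDH13, CDH2 and VIM, as for the median tested gene, most of the variance lay between replicates of a genotype. The SD of CDH1 over the 15 libraries was 4.23 on the log2 scale, against a median of 0.281 over tested genes.

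The catenins and junction partners, which bind cadherin tails or join them to actin, were read from a list of 12 genes, of which 10 were tested. The core catenins CTNNB1 and CTNNA1 lay between 294.7 and 413.9 CPM and between 592.0 and 770.6 CPM, and were not called in guide 1 against empty vector. There, 3 of the 10 were lower and 0 higher, beside 4.57% of all tested genes called lower, with a list median of -0.21. AFDN (afadin, which links nectins to actin) was lower by -0.87 (adjusted p = 0.00424; 0.01 with the block). JUP (plakoglobin) was lower by -1.15 (adjusted p = 0.047; 0.0893 with the block) and ARVCF, a relative of p120 catenin, by -1.44 (adjusted p = 0.0374; 0.0729 with the block). The AFDN call held in all 15 fits without 1 library, that of JUP in 4 and that of ARVCF in 6, with adjusted p of up to 0.217 and 0.159 in the others, both without empty-vector replicate 3. In guide 2 against empty vector AFDN was lower by -0.56 (adjusted p = 0.0315), a call kept in 9 of the 15 fits and lost without empty-vector replicate 2 or 3, guide 2 replicate 1 or 3, or both-guides replicate 1 or 2 (adjusted p up to 0.134). In edited against unedited lines it was lower by -0.39 (adjusted p = 0.0378; up to 0.134 in the 11 of 15 fits that lost the call). In parental cells AFDN gave -0.46 against empty vector (adjusted p = 0.0647). The unedited parental libraries also lay below those with empty vector in JUP (70.7 to 101.2 CPM against 114.5 to 194.2 CPM). The same held for ARVCF (1.43 to 2.30 CPM against 2.47 to 3.45 CPM). In guide 1 against parental cells 0 of the 10 list genes were called, beside 0.149% of all tested genes.

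Of 5 partners and neighbours of EPCAM at the cell surface, all tested, 1 was lower in guide 1 against empty vector and 0 higher, with a median of -0.84. Of all tested genes 4.57% were called lower there. Without guide 2 replicate 2, all 5 were called lower in that comparison, with a median of -0.85, beside 18.1% of all tested genes called. The tetraspanin CD9 was lower in guide 1 by -0.63 (adjusted p = 0.0155) and in the unedited parental cells by -0.67 (adjusted p = 0.0151), both against empty vector. Without empty-vector replicate 3 the CD9 difference in guide 1 was -0.48 (adjusted p = 0.0546), and the parental difference missed the threshold without that library or any 1 of the parental libraries (adjusted p up to 0.0536). CD24, a small mucin-like surface protein, was lower in guide 2 by -2.92 (adjusted p = 0.00943), where all 3 libraries including replicate 2 were between 17.3 and 22.1 CPM.

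Transcriptional and splicing regulators of EMT were read from a list of 11 genes, of which 10 were tested (GRHL2 was not, with at most 0.0313 CPM). SNAI1 (Snail), which represses CDH1 in many epithelia, was at 2.42, 2.99 and 3.06 CPM in empty-vector cells and at 1.05, 1.27 and 1.23 CPM in parental cells. It was at 0.574, 0.899 and 0.902 CPM with guide 1, at 0.777, 0.816 and 0.824 CPM with guide 2, and at 1.24, 1.498 and 1.13 CPM with both guides. Snail transcript was thus below 1 CPM in all guide 1 and guide 2 libraries, guide 2 replicate 2 with its high CDH1 included. It was lower than in empty vector by -1.83 (adjusted p = 0.000845) in guide 1, by -1.82 (adjusted p = 0.00133) in guide 2, by -1.15 (adjusted p = 0.0203) with both guides and by -1.28 (adjusted p = 0.00635) in parental cells. It was the only gene of the 10 called in each of these 4 comparisons. The calls in guide 1, guide 2 and parental cells held in all 15 fits without 1 library. That with both guides was lost in 5, those without empty-vector replicate 2 or 3 or any both-guides library. With guide 2 replicate 2 left out, 6 of the 10 regulators were called in guide 1 against empty vector, 2 higher and 4 lower. The share of all tested genes called was then 18.1%.

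ZEB1 and ZEB2, further repressors of CDH1, were at 43.7, 41.7 and 48.5 CPM and at 44.0, 41.2 and 47.1 CPM with guide 1, against 35.8, 34.9 and 30.1 CPM and 29.5, 30.02 and 23.1 CPM in empty-vector cells. They did not overlap but were not called (0.40, adjusted p = 0.492, and 0.67, adjusted p = 0.335), except without guide 2 replicate 2 (adjusted p = 0.00732 and 0.0131). Unedited parental cells had 38.2, 46.7 and 43.1 CPM of ZEB1 and 30.6, 54.2 and 49.1 CPM of ZEB2, and guide 1 overlapped them (0.09, adjusted p = 0.887, and 0.0045, adjusted p = 0.995). Parental against empty vector was itself called without guide 2 replicate 2 for both (adjusted p = 0.0345 and 0.0189). In guide 2 replicate 2 they were at 16.7 and 9.75 CPM, the lowest of all libraries. ESRP1, a splicing regulator of epithelial cells, was at 32.6, 33.9 and 57.3 CPM with empty vector and at 0.0574, 0.0760 and 0.127 CPM with guide 1 (-8.86, adjusted p = 0.0549; 0.000465 without guide 2 replicate 2). TWIST1, TWIST2 and SNAI2 overlapped between guide 1 and empty vector.

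**Figure D4:**
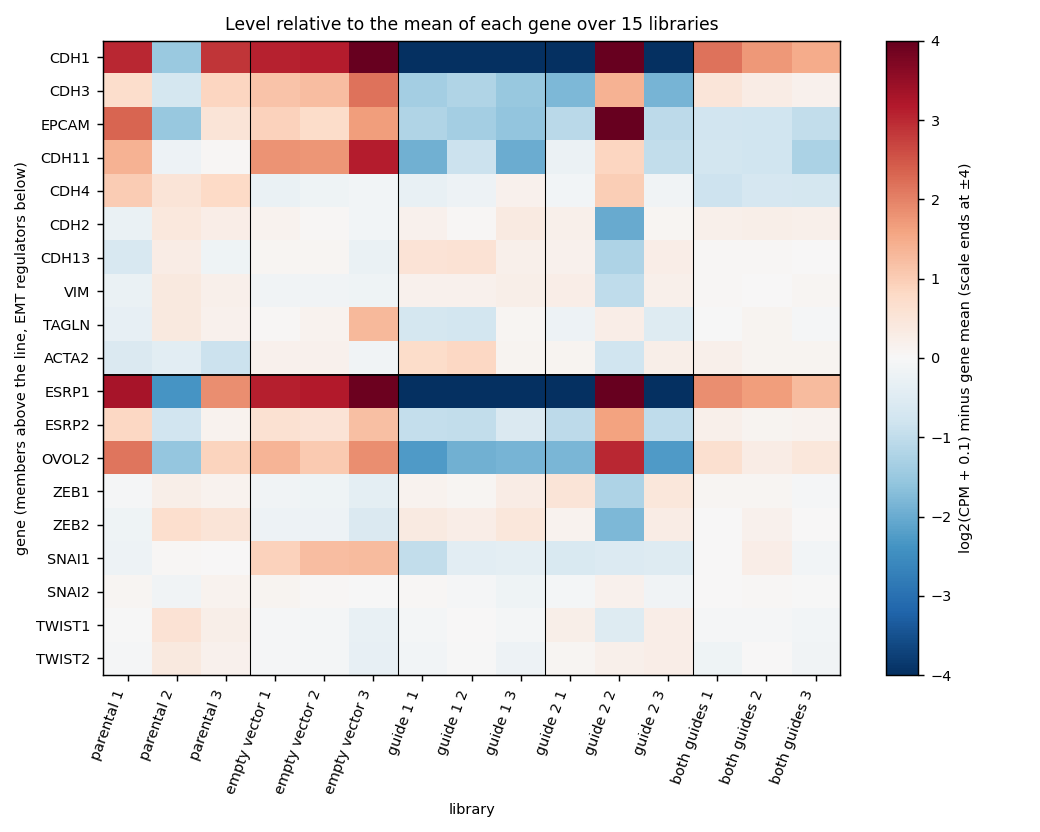
Log2(CPM + 0.1) of the 10 genes (above the line) and 9 EMT regulators (below) in each library, minus the mean of the gene over the 15 libraries, with the colour scale ending at ±4. ESRP1 and OVOL2 share the library pattern of CDH1, SNAI1 is high in the empty-vector libraries, and the column of guide 2 replicate 2 is high for CDH1 and EPCAM and low for CDH2, VIM, ZEB1 and ZEB2.

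Of 19 contractile and mesenchymal cytoskeleton genes, 15 were tested, with a median of -0.29 in guide 1 against empty vector. There 4.57% of all tested genes were called lower, and of the 15 genes 2 were lower and 0 higher. These were CNN2 (calponin 2; -0.76, adjusted p = 0.0442, 0.0817 with the block) and MYL9 (myosin regulatory light chain; -0.75, adjusted p = 0.0482, 0.0847 with the block). Each call was kept in 5 of the 15 fits without 1 library, with an adjusted p of up to 0.178 for CNN2 and 0.217 for MYL9, both without empty-vector replicate 3. Leaving out guide 2 replicate 2, 8 of the 15 were lower and 0 higher, beside 18.1% of all tested genes called. Of 17 further cadherins, 5 were tested (CDH10, CDH16, CDH18, CDH24 and CDH26). In 55 tests edgeR called 0, with 11 at an unadjusted p under 0.05, and DESeq2 called 3. EdgeR called 12 without guide 2 replicate 2, all of CDH10 or CDH16. The share of all tested genes called in those fits lay between 0.162% and 18.1%, depending on the comparison. CDH10, a type II cadherin, was at 10.4, 11.1 and 4.72 CPM with guide 1 and at 3.71, 3.54 and 2.18 CPM with empty vector, without overlap (1.47, adjusted p = 0.147; called at 1.46, adjusted p = 0.00526, without that library). The guide 1 libraries lay above the parental ones as well, with 2.28 (adjusted p = 0.129; 0.00157 without that library). CDH16, a kidney cadherin, was below 1 CPM in every library, at 0.630, 0.461 and 0.839 CPM with empty vector and at 0.0766, 0.0127 and 0 CPM with guide 1. It differed by -4.51 in guide 1 (adjusted p = 0.054; 0.000913 without guide 2 replicate 2), a fitted value that rests on few counts.

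Markers of other cell types moved with the guide 1 line in part, and DCN, COL1A1 and COL1A2 over the edited lines together. The summed level of 8 fibroblast markers was 437 to 1110 CPM with guide 1 and 103 to 146 CPM with empty vector, and nearly all of it was DCN (decorin; 432.0 to 1095 CPM against 82.3 to 130.4 CPM). Of the 5 fibroblast markers tested 2 were higher, DCN (2.87, adjusted p = 0.0124) and LUM (lumican; 2.49, adjusted p = 0.0168), the latter at 1.08 to 1.55 CPM against 0.0933 to 0.333 CPM. In guide 1 against empty vector 5.88% of all tested genes were called, in either direction. COL1A1 was lower by -1.61 (adjusted p = 0.0183) and COL3A1 had at most 3 counts. These 3 calls were lost without empty-vector replicate 3 or guide 1 replicate 2, and that of LUM also without guide 1 replicate 1 (adjusted p up to 0.0767 for DCN, 0.0849 for LUM and 0.0918 for COL1A1). The endothelial receptor gene KDR was higher by 1.86 (adjusted p = 0.0352; 0.0733 with the block), at 5.29 to 10.99 CPM against 1.72 to 2.71 CPM, a call kept in 7 of the 15 fits without 1 library and at up to 0.171 in the others. Parental libraries, at 3.84 to 10.1 CPM of KDR, also lay above those with empty vector. In the other edited lines DCN was at 328.5, 55.35 and 400.2 CPM with guide 2 and at 226.8 to 251.2 CPM with both guides. Over edited against unedited lines DCN was higher by 1.78 (adjusted p = 0.0289), a call kept in 3 of the 15 fits without 1 library. COL1A1 was lower there by -1.42 (adjusted p = 0.00881), kept in all 15 fits, and LUM was not called (0.67, adjusted p = 0.404). COL1A2, at most 0.548 CPM in any library, was lower there by -1.30 (adjusted p = 0.0285), kept in 4 of the 15 fits. Of all tested genes 1.51% were called in that comparison. COL1A2 was also higher in unedited parental cells than with empty vector, by 2.15 (adjusted p = 0.00888), and was not called in guide 1 against empty vector (-0.32, adjusted p = 0.735). The summed level of 9 epithelial markers was 3710 to 4380 CPM with guide 1 and 6740 to 8610 CPM with empty vector. Of 8 epithelial markers tested 2 were lower in guide 1 and 0 higher, the keratins KRT17 (-4.89, adjusted p = 0.0346; 0.0655 with the block, kept in 5 of 15 fits without 1 library) and KRT18 (-0.52, adjusted p = 0.014; 0.0394 with the block, kept in 12). Unedited parental libraries also lay below those with empty vector in both, by -1.38 for KRT17 (adjusted p = 0.517) and -0.37 for KRT18 (adjusted p = 0.0609). Against parental cells guide 1 was not called for KRT17 (-3.51, adjusted p = 0.183) or for KRT18 (-0.15, adjusted p = 0.392), and the KRT18 libraries overlapped. Of all tested genes 4.57% were called lower in guide 1 against empty vector. Without guide 2 replicate 2 the number lower was 6 of 8 epithelial markers, beside 18.1% of all tested genes called. In guide 2 replicate 2 the epithelial sum was 12200 CPM, the highest of all, beside 62.3 CPM of fibroblast markers, the lowest of all. The part of these markers in the results above was not tested.

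The genes whose log2 CPM was most like each member's across the 15 libraries were found by Pearson r among 11608 genes. For CDH1 these were FAT2 (a giant atypical cadherin, r = 0.995), COL17A1 (a hemidesmosome collagen, 0.994) and DSG3 (a desmosomal cadherin, 0.992), and r was 0.995, 0.994 and 0.991 without guide 2 replicate 2. For CDH3 they were F11R (a tight junction protein, 0.992), ABCA12 (0.990) and LAMA3 (a laminin chain, 0.988). CDH1 and CDH3 themselves had an r of 0.97, and CDH1 and EPCAM 0.72. For CDH2 they were FADS2 and LOXL2 (both 0.968) and NCOA1 (0.967), falling to 0.804, 0.779 and 0.688 over the 14 libraries without guide 2 replicate 2, so that the likeness of CDH2 rested partly on that library. CDH2 and VIM had an r of 0.93, and 0.77 without it. CDH2 and CDH13 had an r of 0.82, and 0.53 without it. VIM and ZEB2 had an r of 0.96, and 0.86 without it. The 15 points share genotypes in threes and the same scaling, so these values are descriptions.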

How the data were processed

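RNA was sequenced in 15 MCF-10A libraries, 3 for each of 5 genotypes, grouped by their labels. Per the submitters' processing notes, the authors used Trim Galore 0.6.0, STAR 2.7.8a and GRCh38; the annotation, counting program and use of strand are not given in the sources used here. The authors deposited whole-number counts per gene and a table of CPM, which equals count divided by library total to within 4.91e-11. CPM are printed as deposited. Positions and exon lengths come from GENCODE 29 (GRCh38).

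Counts were tested with edgeR 4.0.16 (R 4.3.3): filterByExpr by genotype, TMM scaling (factors 0.973 to 1.02), 1 group-means quasi-likelihood fit over 15 libraries with 10 residual degrees of freedom, two-sided, with Benjamini-Hochberg adjustment over 17457 genes. SE was taken from the size of the fold change and its F statistic. Likeness was computed on log2 CPM (prior count 2) over genes with a mean of at least 1. The procedure was tested on simulated data in which 200 genes changed 2-fold in guide 1. It recovered 47% of them, and 2% of its calls were false. The simulated data held no library set apart from its replicates, as guide 2 replicate 2 was, so these shares may not hold for the real data. A gene that was not called may thus still have changed. Each library, labelled a biological replicate, counted as a sample. Replicate libraries differed beyond sampling noise at 24.6% to 76.8% of genes with at least 20 counts, which does not show how they were separated.

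The members and lists were chosen with earlier results of these data known; named genes are the 10 members, list genes called in the comparison discussed or abundant in their list, and the 3 genes most like a member. 1 gene of the immune marker list and 1 of the EPCAM partner list are not reported here and were left out of the counts. List genes ZEB1, ZEB2, ESRP1, TP63, KRT14, CDH10 and CDH16 were named after their values were seen. Replicate numbers come from the labels. Deviations from genotype means correlated over 0.1 in every same-numbered pair only for empty vector and guide 1 (0.136 to 0.28), so block values stand beside that comparison; the mean over 30 pairs was -0.05. The alternatives were RLE scaling, no filter, a replicate block, DESeq2 1.42.0, only the compared groups, leaving out each library, and the CDH2 to CDH1 ratio without length. Python 3.11.15, numpy 2.4.6, pandas 2.3.3, scipy 1.17.1 and matplotlib 3.10.9 were used.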

Additional observations from a re-analysis of the deposited data

How the results depend on the processing

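Among the 66 member results compared, RLE scaling changed no direction and no call, no filter on low counts added 4 calls, and only the compared groups in the fit added 13. DESeq2 gave an adjusted p for 48 of the 66; 41 kept direction and side of the threshold and 7 became calls, while CDH1 and CDH3 had no adjusted p. With a replicate block 2 of the 6 calls remained (CDH11 in guide 1 against empty vector and in edited against unedited lines), 4 missed the threshold, and CDH1 in guide 2 against parental cells turned from 0.15 to -0.66. Length moved each log2 ratio of CDH2 to CDH1 by 0.32. CDH1 in 5 libraries and CDH11 in guide 1 rest on 12 counts or fewer.

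In the order guide 1 against empty vector, guide 2 against empty vector, both guides against empty vector, parental against empty vector, guide 1 against parental, guide 2 against parental, both guides against parental, edited against unedited lines, guide 1 against guide 2, both guides against guide 1 and both guides against guide 2, the numbers of genes called were 1026, 687, 168, 762, 26, 9, 34, 263, 7, 48 and 26. They were 567, 375, 69, 400, 9, 7, 22, 111, 5, 20 and 2 with a replicate block, 1937, 1373, 754, 1604, 657, 138, 367, 928, 204, 384 and 150 with DESeq2, and 975, 487, 178, 569, 84, 17, 60, 307, 23, 82 and 51 without the filter. With only the compared groups they were 2608, 13, 3054, 1122, 44, 1, 147, 0, 1252 and 2, leaving out edited against unedited lines, which uses all groups. Leaving out each library in turn gave 215 to 3236, 170 to 2581, 21 to 1196, 145 to 2484, 6 to 2591, 2 to 1064, 4 to 467, 59 to 3213, 2 to 593, 4 to 827, 2 to 327, in the same order; the cause was not tested. Directions that turned in some of these fits gave log2 fold changes of -0.0585 to 0.17 for CDH4 in guide 1 against empty vector, -0.67 to 0.0853 for CDH2 in guide 2 against empty vector, -0.36 to 0.21 for CDH13 in guide 2 against empty vector, -2.30 to 2.00 for EPCAM in guide 2 against empty vector, -0.16 to 0.36 for VIM in guide 2 against empty vector, -0.37 to 0.0627 for ACTA2 in guide 2 against empty vector, -0.065 to 0.0878 for CDH13 in both guides against empty vector, -0.042 to 0.0905 for ACTA2 in both guides against empty vector, -0.0262 to 0.30 for CDH2 in parental against empty vector, -0.39 to 0.0832 for CDH13 in parental against empty vector, -1.38 to 0.50 for EPCAM in parental against empty vector, -9.33 to 0.73 for CDH1 in guide 2 against parental, -0.17 to 0.0798 for CDH2 in edited against unedited lines, -0.0193 to 0.16 for VIM in edited against unedited lines, -1.29 to 8.77 for CDH1 in both guides against guide 2, -0.22 to 2.16 for CDH3 in both guides against guide 2.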
